A study of Mus musculus with 16 samples.

Results

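The growth hormone and IGF axis was followed through 10 genes in the liver and white adipose tissue of obese mice: Ghr, Stat5b, Socs2, Igf1, Igfals, Igf1r, Igfbp1, Igfbp2, Igfbp3 and Igfbp4. They were taken by symbol from both deposited tables, each with 22322 gene identifiers, and all 10 were found in both. The animals were DIO (diet-induced obese) mice injected intraperitoneally with vehicle (the libraries labelled HFD) or with halofuginone at 100 μg/kg (labelled H100). Injections were given every 2 days and tissue was taken after 8 weeks. Halofuginone is an inhibitor of prolyl-tRNA synthetase, an enzyme that charges tRNA with proline. There were 5 liver libraries and 3 fat libraries in each of the 2 groups. Both groups of a tissue share the obese background, and lean animals are not analysed here. Strain, sex, age, fat depot and feeding state at collection are not given in the sources used here, nor is it said which liver and fat libraries came from the same animal. Where nothing says that libraries came from separate animals, the p-values measure only the spread between these libraries.

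Growth hormone from the pituitary binds its receptor Ghr on hepatocytes, which activates the kinase JAK2 and the transcription factor STAT5B. STAT5B drives transcription of Igf1, of Igfals, which encodes the acid-labile subunit, and of Socs2, an inhibitor that feeds back on the receptor. In blood most IGF1 is carried in a complex with IGFBP3 and the acid-labile subunit, while IGFBP1, IGFBP2 and IGFBP4 form smaller complexes. Hepatic Igfbp1 is known to be repressed by insulin and to rise in fasting and in the response to amino acid shortage.

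Library totals were 20309956 to 31980683 counts in liver and 17070614 to 21387799 in fat. Levels below are CPM, that is, counts scaled to a common library size with TMM factors, unless they are named as FPKM, the deposited values per length of transcript. A gene was called changed where edgeR's quasi-likelihood test gave an adjusted p under 0.05 (Benjamini-Hochberg, over all genes tested). The response of the tissue to the drug was read from 2 targets of the amino acid response. Asns, asparagine synthetase, was at 0.317 to 1.35 CPM in vehicle livers and 6.71 to 127 under halofuginone, and Trib3 was at 2.76 to 5.73 and 5.96 to 357. Halofuginone liver replicate 1 was the lowest treated library for both genes, next to the vehicle range for Trib3. It also lay near vehicle for most genes of the axis, so the results on the axis genes and the counts of each list in liver are given with and without it. Because replicate 1 was singled out after these values were seen, smaller p-values without it are descriptions. They are no independent support for a drug effect.

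The hepatocyte markers summed to 109500 to 124700 CPM in vehicle livers and to 41770 to 104200 under halofuginone, and 3 of the 8 were called lower and 1 higher (5 and 1 without halofuginone replicate 1). None of the 10 macrophage markers was called in liver by edgeR, nor had any an unadjusted p under 0.05, and 3 were called lower without replicate 1. Of all genes tested in liver, 10.5% were called lower and 12.7% higher, and without replicate 1 21.6% and 21.2%. The adipocyte list summed to 105 to 202 CPM in vehicle livers and to 26.3 to 75.6 under halofuginone. In fat the adipocyte list summed to 13550 to 26420 CPM in vehicle and 22590 to 27880 under the drug, so both tissues expressed the markers of their label. The macrophage list in fat summed to 4168 to 9350 CPM in vehicle and 2839 to 3141 under halofuginone. Of its 8 tested genes, 7 were lower in every treated library, against 10.4% of all genes tested in fat. Vehicle fat replicate 3 had the highest sum of macrophage markers, the lowest sum of adipocyte markers and 76.2 CPM of epididymis markers, against 0.54 to 12.3 CPM in the other fat libraries. In such bulk samples, fewer cells of a type and less RNA per cell cannot be told apart, and the part of these shifts in the results below was not tested.

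Promoter sequence is shown for Igfbp1 and Igfals, the binding protein that rose in liver and the subunit gene that was low under halofuginone in both tissues. RefSeq (build GRCm38.p6) had promoter windows for 9 of the 10 genes, 14 windows in all, and the 250 bases before each start site were searched on both strands. Socs2 was not matched. The motifs were TTCNNNGAA (the STAT5 type), CAAAACA (a FOXO-type motif of insulin response elements), GTAAACA (the forkhead core) and TGATGNAA (the ATF4 type). In the sequences below, which run 5′ to 3′ on the plus strand, capitals mark the matches, and bases that GENCODE M21 places in an exon are left out. They are, for Igfbp1, chr11:7197537-7197781 (start site at 7197787), and for Igfals, chr17:24877981-24878214 (start site at 24878231) and chr17:24877594-24877655 (start site at 24877844).
Igfbp1: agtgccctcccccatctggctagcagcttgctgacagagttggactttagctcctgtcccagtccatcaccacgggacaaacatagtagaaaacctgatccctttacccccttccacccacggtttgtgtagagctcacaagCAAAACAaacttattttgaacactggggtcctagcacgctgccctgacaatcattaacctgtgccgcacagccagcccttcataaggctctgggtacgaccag
Igfals, downstream start: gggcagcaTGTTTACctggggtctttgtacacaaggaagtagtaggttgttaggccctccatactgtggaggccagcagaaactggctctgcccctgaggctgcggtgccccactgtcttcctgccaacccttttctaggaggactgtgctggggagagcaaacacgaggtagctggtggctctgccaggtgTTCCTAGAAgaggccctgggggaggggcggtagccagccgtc
Igfals, upstream start: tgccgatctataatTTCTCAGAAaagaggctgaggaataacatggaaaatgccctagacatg

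The Igfbp1 window held CAAAACA at position −108 from its start site. Of the Igfals windows shown, the downstream one held TTCCTAGAA at −58 and the forkhead core, as its reverse complement TGTTTAC, at −242. The upstream Igfals window held TTCTCAGAA at −236. Another Igfals window (chr17:24878497-24878746), downstream of both, held none of the 4 motifs and is not shown. A STAT5-type match was present in 7.02% of all 32851 promoter windows of this length, CAAAACA in 5.56%, the forkhead core in 3.17% and the ATF4 type in 3.45%. None of the 4 motifs was found in the windows of the other 7 matched genes, which says only that these letters are absent from 250 bases. A match is a description of the sequence and not a measured site of binding.

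In vehicle liver the binding protein transcript Igfbp4 was the most abundant of the 10 per length, at 449 ± 26.7 FPKM (SD, n = 5), above every library of the next genes. Igf1 (291 ± 23.1 FPKM) and Igfbp2 (281 ± 49.7 FPKM) overlapped, and both lay above Ghr (153 ± 7.80 FPKM). Igfals (40.3 ± 6.42 FPKM), Igfbp1 (21.1 ± 12.3), Socs2 (13.8 ± 9.40), Igfbp3 (7.58 ± 1.35) and Stat5b (7.19 ± 0.467) each overlapped the next in this order of FPKM. Igf1r, the receptor for IGF1, was last and separate at 0.172 ± 0.0148 FPKM, from 40 to 65 counts per vehicle library.

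Under halofuginone the liver had lower counts of Ghr, Socs2, Igfals and Igf1 and higher counts of Igfbp1, and for Igf1 the fall was seen in the counts but not in the FPKM. All 10 genes passed the filter on low counts. Of them, 1 rose (Igfbp1) and 4 fell (Ghr, Igf1, Igfals and Socs2), against 23.2% of the 12311 genes tested that were called in either direction (12.7% higher and 10.5% lower). Igfbp2, Igfbp3, Igfbp4, Igf1r and Stat5b did not pass the test. DESeq2 also called 5 of the 10, against 25.1% of 14333 genes. An unadjusted p under 0.05 in edgeR's test was reached by 7 of the 10, against 39.1% of all genes. The median log2 fold change was −0.41 over the 10 genes and 0.02 over all genes tested. Without halofuginone replicate 1, 8 of the 10 were called, 2 higher and 6 lower, against 42.8% of 12422 genes (21.2% higher and 21.6% lower).

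**Figure D1:**
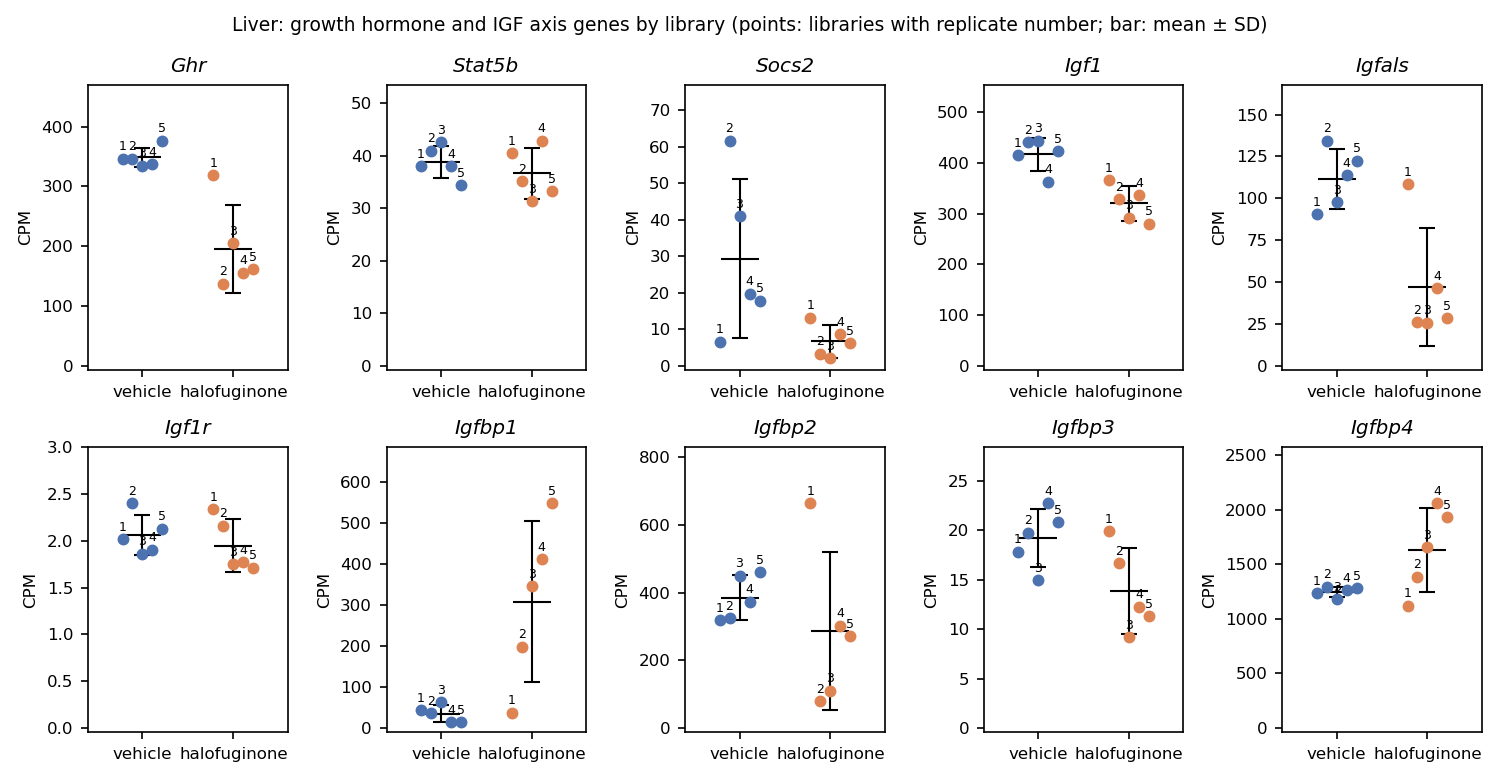
CPM of the 10 axis genes in each liver library, on linear axes, with the replicate number beside each point and a bar for the mean ± SD (n = 5 per group). In most panels halofuginone replicate 1 lies with the vehicle libraries, as for Igfals (108 CPM) and Igfbp1 (37.5 CPM).

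Ghr, the growth hormone receptor, was at 347, 346, 335, 338 and 376 CPM in vehicle replicates 1 to 5 and at 319, 137, 205, 156 and 161 CPM in halofuginone replicates 1 to 5. Every treated library lay below every vehicle library, replicate 1 by little, and Ghr was the only gene of the axis whose groups did not overlap in liver (1 of 10, lower, against 11.7% of all genes, 6.55% lower and 5.13% higher). The fall was 0.83 on the log2 scale, or 1.78-fold (SE 0.21, edgeR adjusted p 0.0191). It passed the test in 9 of the 10 fits that left out 1 library and had an adjusted p of 0.0511 without halofuginone replicate 5. Without replicate 1 the log2 fold change was −1.10 (SE 0.12, edgeR adjusted p 8.47e-05).

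Stat5b, the main transcription factor downstream of this receptor, was at 34.4 to 42.5 CPM in vehicle livers and 31.3 to 42.8 under halofuginone. The groups overlapped nearly completely and the log2 fold change was −0.08 (SE 0.10, edgeR adjusted p 0.586). Its sign changed with the scaling, to 0.07 with library size alone.

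Socs2, the feedback inhibitor and a direct target of STAT5B, was at 6.61, 61.7, 41.0, 19.8 and 17.9 CPM in vehicle replicates 1 to 5. Under halofuginone it was at 13.2, 3.28, 2.08, 8.72 and 6.14 CPM. Vehicle replicate 1 lay inside the treated range, and vehicle libraries differed among themselves more for this gene than for Ghr or Igf1. Socs2 fell by 2.15 on the log2 scale (SE 0.60, edgeR adjusted p 0.0278). The call held in 4 of the 10 fits that left out 1 library, with log2 fold changes from −2.56 to −1.70 and adjusted p from 0.00718 to 0.0715. It was lost without vehicle replicates 2 or 3 or any 1 of halofuginone replicates 2 to 5.

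The other genes of growth hormone signalling were read from a list of 17, of which 16 were tested in liver. None was called higher and 3 were called lower, with a median log2 fold change of −0.11, against 12.7% and 10.5% of all genes. Without replicate 1 none was called higher and 4 lower, against 21.2% and 21.6%. The prolactin receptor Prlr, a relative of Ghr, went from 155 ± 36.6 to 59.9 ± 22.8 CPM (log2 fold change −1.37, SE 0.25, edgeR adjusted p 0.00704), and its groups did not overlap. Stat5a, the close paralog of Stat5b, fell by 0.65 on the log2 scale (SE 0.18, edgeR adjusted p 0.0276). Jak2, the kinase bound to the receptor, stood at −0.16 on the log2 scale (SE 0.15, edgeR adjusted p 0.426), and at −0.33 without replicate 1 (SE 0.11, edgeR adjusted p 0.0279), where it was called.

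Igfals, the acid-labile subunit gene, was at 90.4, 134, 97.6, 114 and 122 CPM in vehicle livers 1 to 5. It was at 108, 26.1, 25.7, 46.2 and 28.5 CPM in halofuginone livers 1 to 5. Replicate 1 stood inside the vehicle range and the other 4 treated libraries stood below all vehicle libraries. Igfals fell by 1.25 on the log2 scale (SE 0.38, edgeR adjusted p 0.0351), and by 1.84 without replicate 1 (SE 0.19, edgeR adjusted p 5.85e-05). Of the 10 fits that left out 1 library, only the fit without that library kept the call, and the adjusted p in the other 9 was at most 0.0834.

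Igf1, the ligand, was at 416, 441, 444, 364 and 423 CPM in vehicle livers and 366, 329, 292, 337 and 281 CPM under halofuginone. The groups met at vehicle replicate 4 and halofuginone replicate 1, and the other treated libraries were lower than all vehicle libraries. The counts fell by 0.38 on the log2 scale (SE 0.12, edgeR adjusted p 0.0365), the smallest fall among the called genes of the axis. The call held in 2 of the 10 fits that left out 1 library (adjusted p 0.00589 to 0.0980) and in 5 of 11 other settings. It was lost with library size as the only scaling (log2 fold change −0.23, edgeR adjusted p 0.144), without a filter on low counts, with the replicate block, in 1 fit of all 4 groups and in both limma fits on FPKM.

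The deposited FPKM, which carry no TMM factors, did not show this fall of Igf1. Its FPKM were 276, 326, 301, 267 and 288 in vehicle livers and 284, 298, 306, 298 and 255 under halofuginone, and the groups overlapped throughout. In limma on log2(FPKM + 1) the log2 fold change was −0.02 (adjusted p 0.918). Scaling counts by library size alone, without TMM factors, moved the median of all liver genes by 0.157 (log2). The gap between CPM and FPKM thus holds scaling as well as length. For the part from length, the average transcript length that turns the authors' counts into their FPKM was computed for each library. This step was chosen after seeing the data. For Igf1 it was 1358 ± 70 bases in vehicle (SD, n = 5, 1244 to 1429) and 1173 ± 66 bases under halofuginone (1125 to 1277). This was 13.6% shorter, or −0.21 on the log2 scale. The lowest vehicle library lay below halofuginone replicate 1, and the other 4 treated libraries lay below all vehicle libraries. Since this length was computed because counts and FPKM differed for this gene, it is a description. An exact permutation test run on it (unadjusted p 0.0159 in liver and 0.8 in fat) is therefore not taken as support. In 93.8% of the 8956 liver genes compared, this length moved by less than 0.1 on the log2 scale, and in 92 genes (1.03%) it moved at least as far as for Igf1. In fat it was 1775 ± 202 and 1695 ± 280 bases (SD, n = 3 each). Igf1 is known to be made as several isoforms with alternative ends, which these gene-level tables do not separate. An antisense transcript overlaps the start of Igf1 in GENCODE M21 and the strand setting of the counting is not given in the sources used here, so reads from both strands cannot be told apart.

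**Figure D2:**
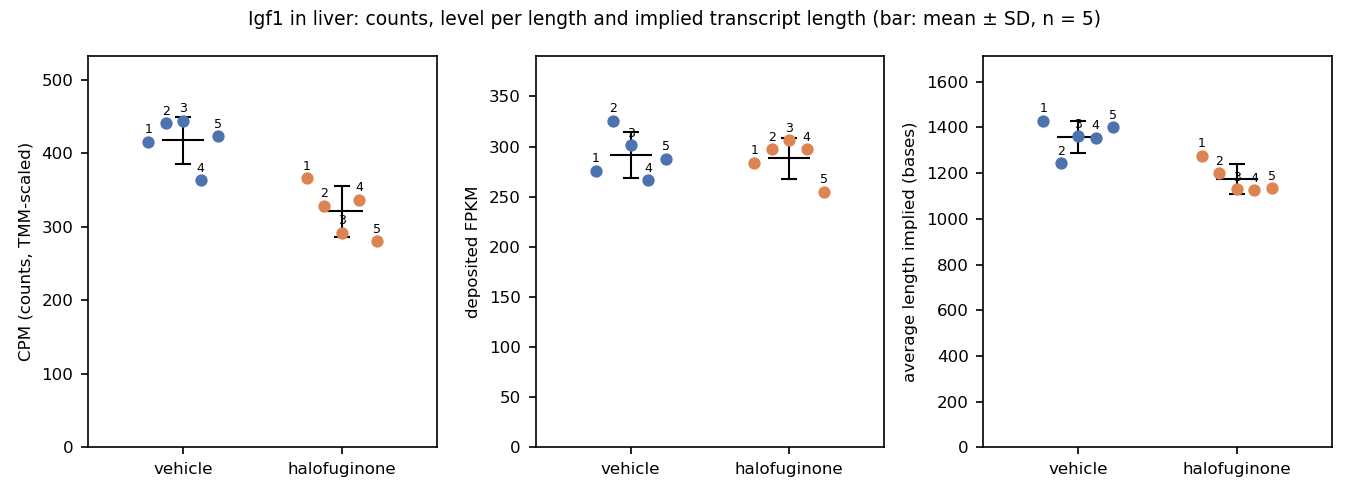
Igf1 in the 10 liver libraries as CPM, as deposited FPKM and as the average transcript length in bases implied by counts and FPKM, with the mean ± SD (n = 5 per group) and all axes from 0. CPM and implied length were lower under halofuginone (implied length 1173 against 1358 bases), while FPKM overlapped (288 against 291). CPM are TMM-scaled and FPKM are not, so they differ in scaling as well as in length.

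Igf1r had 46 to 58 counts in halofuginone livers, at 1.71 to 2.34 CPM, and 1.86 to 2.40 CPM in vehicle. The log2 fold change was −0.09 (SE 0.16, edgeR adjusted p 0.714), with the opposite sign under library size alone (0.07), so no direction is given at this depth.

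Igfbp1, the binding protein known for its acute regulation in liver, was at 43.4, 35.8, 63.3, 14.6 and 14.7 CPM in vehicle replicates 1 to 5. Under halofuginone it was at 37.5 CPM in replicate 1 and at 198, 345, 412 and 549 CPM in replicates 2 to 5. Replicate 1 lay within the vehicle range and the other 4 were above all vehicle libraries. Igfbp1 rose 8.98-fold (log2 fold change 3.17, SE 0.64, edgeR adjusted p 0.0101). It was the only gene of the axis that kept its call in all 10 fits that left out 1 library, with log2 fold changes from 2.86 to 3.48 and adjusted p of at most 0.0293. It also kept it in all 11 other settings tried, among them DESeq2 and limma on FPKM.

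The ratio of Igfbp1 to Igf1 in FPKM sets the binding protein against the ligand per length. It was 0.0320 to 0.127 in vehicle livers, 0.0857 in halofuginone replicate 1 and 0.474, 0.876, 0.902 and 1.45 in replicates 2 to 5. In replicate 5, then, Igfbp1 transcripts outnumbered Igf1 transcripts on the FPKM scale, and in no other liver library did they. The ratio of Igfals to Igf1 was 0.114 to 0.162 in vehicle, 0.144 in halofuginone replicate 1 and 0.0362 to 0.0588 in replicates 2 to 5.

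Igfbp4, an abundant binding protein that holds IGF1 away from its receptor, was at 1232, 1295, 1179, 1260 and 1282 CPM in vehicle. It was at 1120, 1386, 1655, 2061 and 1928 CPM under halofuginone, with replicate 1 below all vehicle libraries and the other 4 above them. The log2 fold change of 0.38 did not pass the test (SE 0.17, edgeR adjusted p 0.123). It passed without replicate 1 (0.47, edgeR adjusted p 0.0183), with library size alone (0.54, edgeR adjusted p 0.0387) and in limma on log2(FPKM + 1) (0.55, adjusted p 0.0325).

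Igfbp2, a binding protein made by hepatocytes, was at 320, 324, 450, 373 and 461 CPM in vehicle and 665, 78.5, 110, 302 and 271 CPM under halofuginone. Replicate 1 was the highest of the 10 liver libraries, and replicates 2 to 5 were below all vehicle libraries. The log2 fold change was −0.43 (SE 0.47, edgeR adjusted p 0.519) with all libraries and −1.04 (SE 0.36, edgeR adjusted p 0.0384) without replicate 1. Igfbp3, which carries IGF1 in the large complex and is known in liver from nonparenchymal cells, was at 15.0 to 22.8 CPM in vehicle and 9.19 to 19.9 under halofuginone. Its log2 fold change was −0.48 (SE 0.20, edgeR adjusted p 0.1002), and −0.66 without replicate 1 (SE 0.17, edgeR adjusted p 0.00873). Of the 10 stellate cell and fibroblast markers, 5 were called lower in liver, against 10.5% of all genes, and 7 without replicate 1, against 21.6%. With all libraries the calls were Col1a1, Col1a2, Col3a1, Pdgfrb and Reln, while Lrat, Rgs5, Dcn, Pdgfra and Lum were not called. Of the 8 endothelial markers, 2 were called higher and 2 lower, against 12.7% and 10.5%. The part of any cell type in the values of Igfbp3 was not tested.

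**Figure D3:**
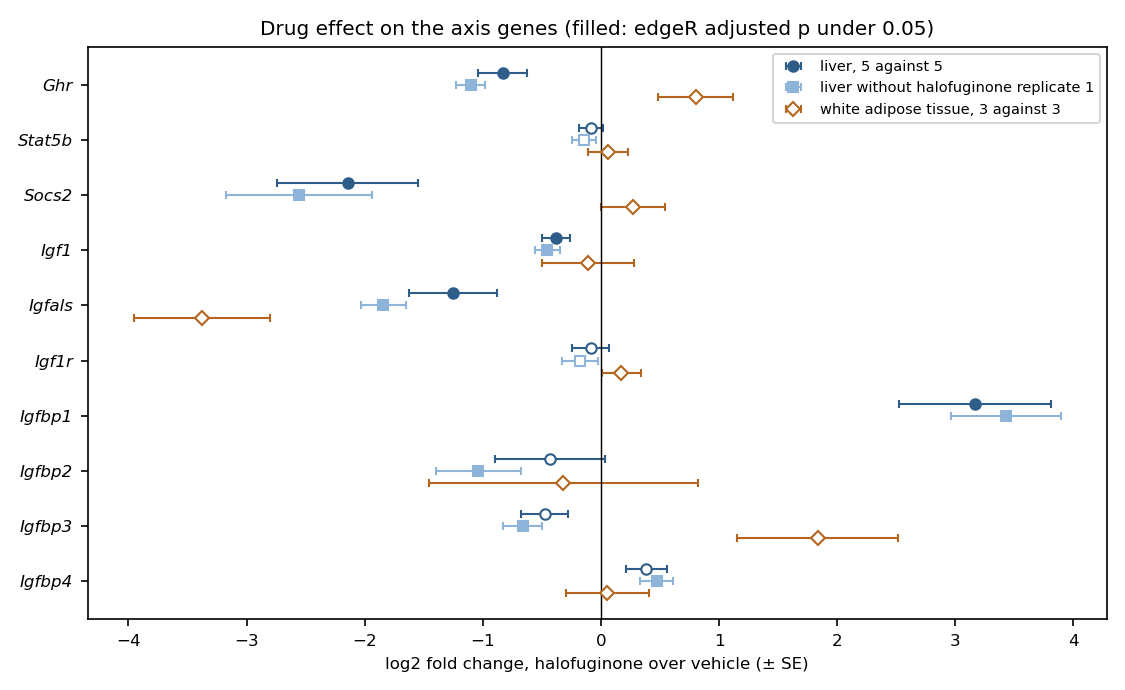
Log2 fold change ± SE of each axis gene (edgeR, halofuginone over vehicle) in liver, in liver without halofuginone replicate 1 and in white adipose tissue, with filled symbols for an adjusted p under 0.05. With all livers Igfbp1 is the only filled symbol above 0 (3.17), Socs2 and Igfals had the largest falls in liver (−2.15 and −1.25), and no symbol is filled for fat; Igfbp1 did not pass the count filter there.

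Seen as shares of the summed FPKM of Igfbp1 to Igfbp7, the liver pool of binding protein transcripts changed in makeup. Igfbp1 was 2.68 ± 1.60% of it in vehicle and 17.8 ± 9.30% under halofuginone (SD, n = 5 each), where replicate 1 had 2.37% and replicates 2 to 5 had up to 26.5%. Igfbp2 went the other way, from 34.8 ± 4.45% to 19.7 ± 17.1%, with 49.3% in replicate 1 and 7.86% in the lowest treated library. Igfbp4 was the largest share in 9 of the 10 libraries, at 56.0 ± 4.09% and 58.9 ± 10.5%. The pool itself summed to 749 to 863 FPKM in vehicle livers and to 830 to 1400 FPKM under halofuginone. These shares are descriptions and were not tested.

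**Figure D4:**
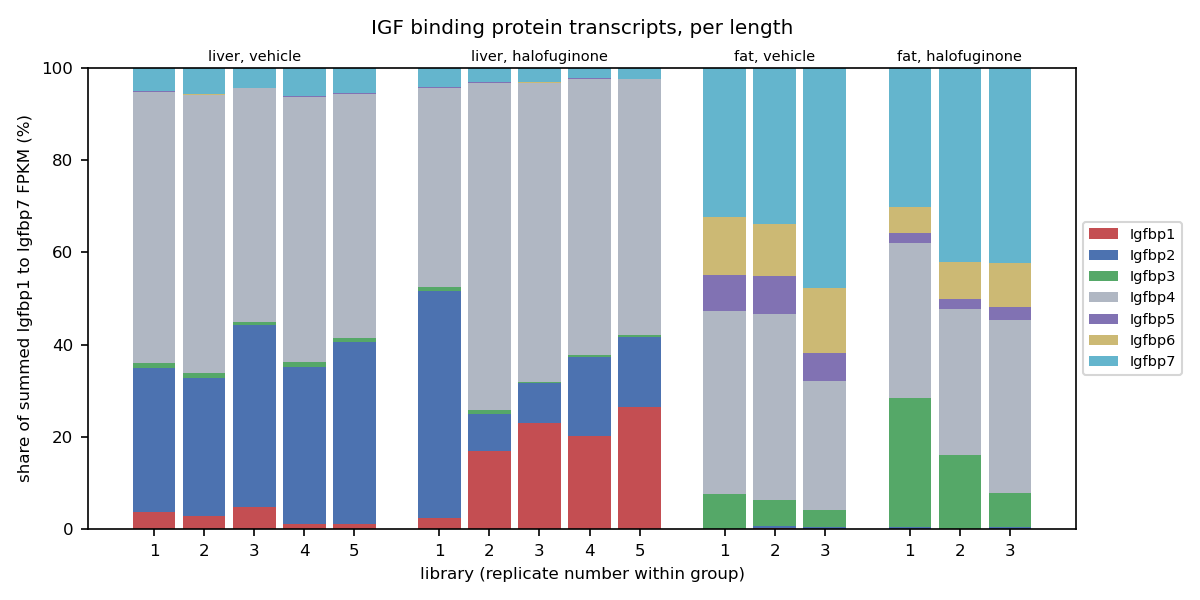
Share of each binding protein gene in the summed FPKM of Igfbp1 to Igfbp7, as 1 stacked bar per library for the 4 groups (5, 5, 3 and 3 libraries). In liver the Igfbp1 part widens in halofuginone replicates 2 to 5 (mean over all 5 of 17.8%, vehicle 2.68%), and in fat the Igfbp3 part widens (17.1% against 5.61%).

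The remaining genes of the IGF system were read from a list of 21, of which 13 were tested in liver. The insulin and IGF1 receptor substrate Irs2 rose by 0.47 on the log2 scale (SE 0.15, edgeR adjusted p 0.0463), and Igfbp7, a related secreted protein with low affinity for IGFs, fell by 0.50 (SE 0.15, edgeR adjusted p 0.0363). The median of the list was −0.19. The insulin receptor Insr stood at −0.08 on the log2 scale (SE 0.10, edgeR adjusted p 0.608). The 1 higher and 1 lower call stand against 12.7% and 10.5% of all genes. Without replicate 1 none of the list was called higher and 2 were called lower, against 21.2% and 21.6% of all genes. Irs2 lost its call there (0.42, edgeR adjusted p 0.0640).

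Liver genes known to depend on the rhythm of growth hormone and to differ between the sexes were read as 2 lists. Of 20 tested genes usually higher in males, 2 rose and 2 fell (median log2 fold change −0.32), near the 12.7% and 10.5% of all genes. Cyp7b1, an oxysterol hydroxylase, went from 165 ± 64.6 to 820 ± 472 CPM (log2 fold change 2.31, SE 0.45, edgeR adjusted p 0.00866). Moxd1, a copper monooxygenase relative, had 1 or 2 counts in each vehicle liver and 40 to 4010 counts under halofuginone (edgeR adjusted p 0.00992). The elongase Elovl3 fell by 1.07 on the log2 scale (SE 0.30, edgeR adjusted p 0.0292) and Cyp2d9 by 1.08 (SE 0.31, edgeR adjusted p 0.0313). Cyp2d9 has close paralogs that can share its reads, so its value is uncertain.

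Of 14 tested genes usually higher in females, none rose and 4 fell, with a median log2 fold change of −1.27, against 12.7% and 10.5% of all genes. Atp6v0d2, a subunit of the vacuolar proton pump, went from 4.70 ± 0.735 to 0.593 ± 0.554 CPM (log2 fold change −3.05, SE 0.44, edgeR adjusted p 0.00332). The flavin monooxygenase Fmo2 fell by 1.96 (SE 0.40, edgeR adjusted p 0.0105) and the reticulon Rtn4 by 1.19 (SE 0.23, edgeR adjusted p 0.00841). Gsta2, a glutathione transferase with close paralogs, fell by 2.71 (SE 0.67, edgeR adjusted p 0.0185). All 4 had every treated liver below every vehicle liver, against 6.55% of all genes tested (5.13% lay above). Without replicate 1 the list had 1 higher and 8 lower of 16 tested, and the list of genes higher in males had 2 higher and 6 lower of 20, against 21.2% and 21.6% of all genes.

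Of 12 genes that respond to fasting or to the insulin-regulated factor FOXO1, as Igfbp1 is known to, 1 rose and 2 fell (median log2 fold change −0.12), near the 12.7% and 10.5% of all genes. Without replicate 1 it was 1 and 4, against 21.2% and 21.6%. Tat, tyrosine aminotransferase, went from 662 ± 240 to 2099 ± 725 CPM (log2 fold change 1.66, SE 0.32, edgeR adjusted p 0.00827). Ppargc1a, a coactivator of gluconeogenesis, fell by 0.92 (SE 0.31, edgeR adjusted p 0.0492). The gluconeogenic genes Pck1 (0.25, SE 0.21) and G6pc (0.29, SE 0.26) did not pass the test. In the list of 10 genes of the amino acid response, 9 rose in liver and none fell, with a median log2 fold change of 2.86, against 12.7% and 10.5% of all genes, and all 10 rose without replicate 1.

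The genes most like Igfbp1 across the 10 liver libraries were Gadd45a, Lepr and Arhgef2, with root mean square differences of log2 CPM of 0.631, 0.755 and 0.788 after centring each gene on its vehicle mean (8816 genes compared). For Igfals they were Slc25a23 (0.153), Hsd17b11 (0.154) and Cd1d1 (0.189). For Igf1, whose own change was small, they were Zcchc9 (0.0535), Lrp5 (0.0787) and Tor1aip2 (0.0898).

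In white adipose tissue Ghr was the most abundant gene of the axis per length, at 236 ± 59.7 FPKM in vehicle (SD, n = 3), and overlapped Igfbp4 at 217 ± 105 FPKM. Igf1 followed at 87.1 ± 36.7 FPKM, and Igfbp3 (33.7 ± 17.0), Igfals (20.5 ± 12.3) and Stat5b (13.9 ± 2.95) overlapped in turn below it. Igf1r was at 1.73 ± 0.165 FPKM. Igfbp2 (2.17 ± 1.83 FPKM), among the most abundant in liver, overlapped Igf1r, and Igfbp1 was last at 0.66 ± 0.912 FPKM.

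With 3 libraries per group, none of the 14030 genes tested in fat had an adjusted p under 0.05 (0%), and the smallest was 0.0887 in edgeR's test. Before adjustment, 1881 genes (13.4%) had a p under 0.05. DESeq2 called 671 genes, 4.71% of those it tested, and 1 of the axis (Igfals). Of the 9 axis genes that passed the count filter, none was called and 3 had an unadjusted p under 0.05 (Igfals, Igfbp3 and Ghr). The groups did not overlap for 1 of the 9, lower, against 20.6% of all genes (10.2% higher and 10.4% lower). Igfbp1 did not pass the filter, with counts of 0, 46 and 8 in vehicle and 0, 0 and 10 under halofuginone.

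**Figure D5:**
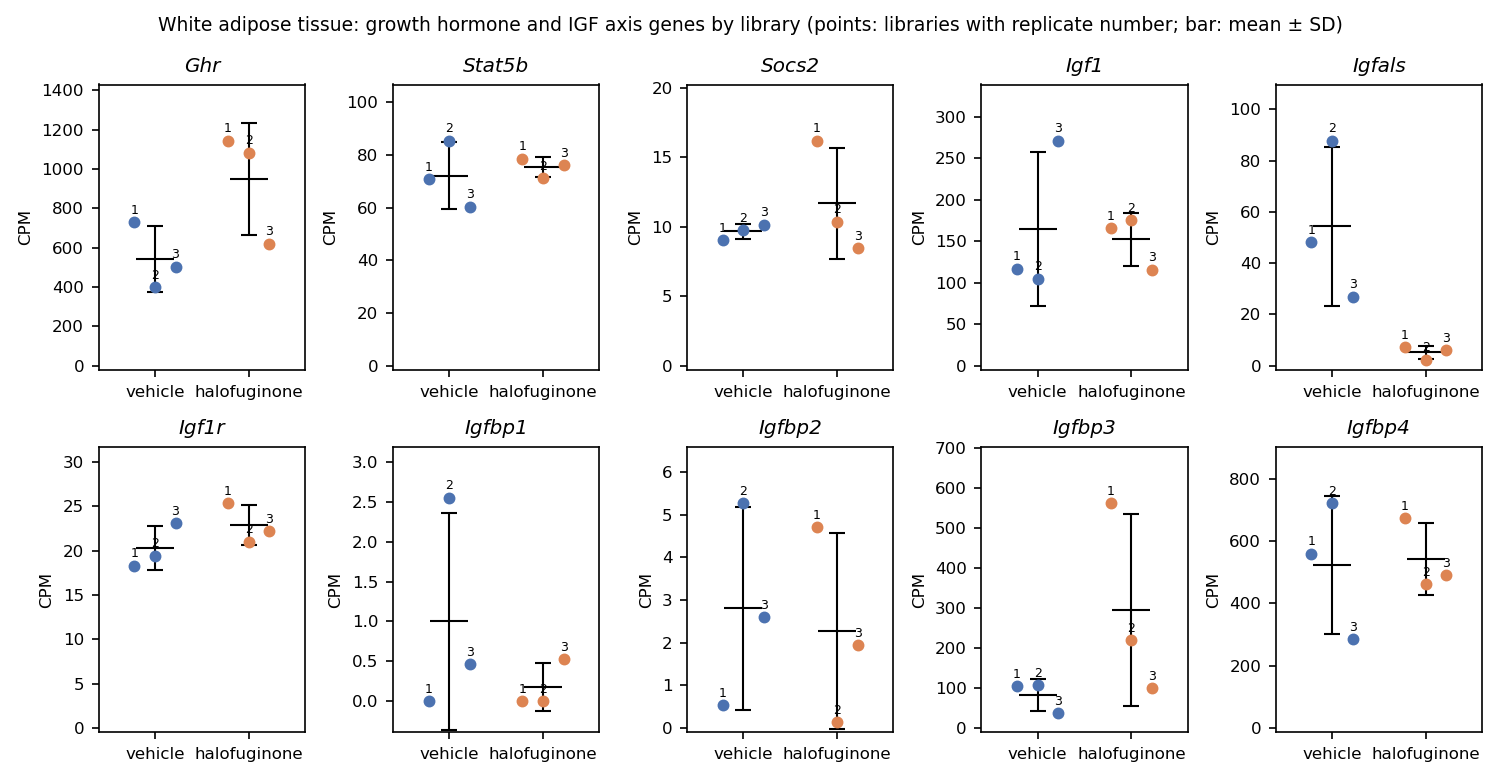
CPM of the 10 axis genes in each library of white adipose tissue, on linear axes, with replicate numbers and the mean ± SD (n = 3 per group). Only the Igfals panel shows separate groups (26.9 to 87.7 CPM in vehicle, 2.32 to 7.30 under halofuginone).

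Igfals was at 48.3, 87.7 and 26.9 CPM in vehicle fat replicates 1 to 3 and at 7.30, 2.32 and 6.10 CPM under halofuginone. All treated libraries lay below all vehicle libraries, although the vehicle libraries themselves spread widely. The log2 fold change of −3.38 (SE 0.58) had an edgeR adjusted p of 0.129 and so was not called, while DESeq2 gave an adjusted p of 2.79e-07. In the fits that left out 1 library it ranged from −3.70 to −2.85. Igfals is known as a liver product, and the hepatocyte list summed to 3.60, 15.2 and 7.33 CPM in the vehicle fat libraries, below the level of Igfals alone in each of them. Its neighbours on the chromosome, Hagh and Nubp2, stood at 0.04 (SE 0.20) and −0.03 (SE 0.16) on the log2 scale in fat. In liver Hagh stood at −0.44 (SE 0.20, edgeR adjusted p 0.125) and Nubp2 was called higher (0.31, SE 0.09, edgeR adjusted p 0.0271). The source of Igfals in fat and the cause of its lower level were not tested.

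Igfbp3 was at 105, 106 and 36.3 CPM in vehicle fat and 562, 220 and 100.2 CPM under halofuginone. The lowest treated library lay just inside the vehicle range, and replicate 1 was far above the others. The log2 fold change was 1.84 (SE 0.68, edgeR adjusted p 0.327). Ghr was at 729, 399 and 503 CPM in vehicle fat and 1143, 1082 and 620 CPM under halofuginone, with overlap at the lowest treated library. Its log2 fold change was 0.80 (SE 0.32, edgeR adjusted p 0.350).

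Igf1 was at 117, 105 and 271 CPM in vehicle fat and 166, 176 and 116 CPM under halofuginone. The high value came from vehicle replicate 3, the library with the most macrophage marker counts. The log2 fold change was −0.11 (SE 0.39, edgeR adjusted p 0.938) with all libraries and 0.46 (SE 0.23, edgeR adjusted p 0.457) without vehicle replicate 3, so no direction can be given for Igf1 in fat. Socs2 was at 9.05 to 10.2 and 8.47 to 16.2 CPM (log2 fold change 0.27, SE 0.27), and Stat5b at 60.3 to 85.3 and 71.1 to 78.6 CPM (0.06, SE 0.17). Igf1r was at 18.3 to 23.1 CPM in vehicle and 21.0 to 25.4 under halofuginone (0.17, SE 0.16), and Igfbp4 at 285 to 723 and 463 to 675 CPM (0.05, SE 0.35). Igfbp2 had 3 to 95 counts per fat library (−0.32, SE 1.14). The adjusted p of these 6 genes lay between 0.705 and 0.966 in edgeR's test.

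Among the binding proteins of fat, Igfbp7 and Igfbp4 held the largest shares of the summed FPKM, at 38.0 ± 8.44% and 35.9 ± 6.89% in vehicle and 38.2 ± 6.89% and 34.3 ± 2.93% under halofuginone (SD, n = 3 each). Igfbp3 was 5.61 ± 2.00% in vehicle and 17.1 ± 10.3% under halofuginone. Igfbp5, a binding protein of mesenchymal cells, was 7.35 ± 1.18% and 2.47 ± 0.393%, and Igfbp6, which prefers IGF2, was 12.7 ± 1.41% and 7.63 ± 2.08%.

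Of 18 further IGF system genes tested in fat, none was called and 8 had an unadjusted p under 0.05, in all of which the groups did not overlap. Over all genes tested in fat, 13.4% had such a p, and the groups did not overlap in 20.6% (10.2% higher and 10.4% lower). They are named here after their values were seen. Higher under halofuginone in every library were Irs2 (log2 fold change 1.14, SE 0.26, edgeR adjusted p 0.179), the adaptor Grb10 (0.86, SE 0.29) and Insr (0.64, SE 0.22). Lower in every library were Igfbp5 (−1.49, SE 0.34, edgeR adjusted p 0.179), Igfbp6 (−0.61, SE 0.19), the IGF2 receptor Igf2r (−0.63, SE 0.19), the adaptor Grb14 (−0.92, SE 0.36) and Adam12, a protease of binding proteins (−1.66, SE 0.36). The fibroblast marker list was also lower in its summed level, at 4496 to 6454 CPM in vehicle and 3247 to 3768 under halofuginone. Of its 9 tested genes, 3 were lower in every treated library (Col1a1, Col1a2 and Col3a1), against 10.4% of all genes. For the others the groups overlapped, with log2 fold changes from −0.98 (Lum) to 0.13 (Dcn). The part of fibroblasts in the falls above was not tested. None of the 17 growth hormone signalling genes had an unadjusted p under 0.05 in fat.

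Whether the drug effect differed between the tissues was tested by subtracting the liver effect from the fat effect, with all 16 libraries fitted together. None of the 10 axis genes was called, against 0.949% of the 14853 genes tested (0.417% higher and 0.532% lower), and 5 of the 10 had an unadjusted p under 0.05, against 15.7% of all genes. Ghr, lower in every treated liver and with a positive value in fat, had a difference of 1.62 on the log2 scale (SE 0.37, edgeR adjusted p 0.0518). That of Igfbp3 was 2.28 (SE 0.63, edgeR adjusted p 0.0914) and that of Socs2 2.40 (SE 0.85, edgeR adjusted p 0.1797). Igfals had a difference of −2.14 (SE 0.70, edgeR adjusted p 0.146), with a negative effect in both tissues. Igfbp1 had −5.70 (SE 1.64, edgeR adjusted p 0.106), resting on the few counts in fat, and ranged from −10.01 to −3.59 when 1 library was left out.

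Without halofuginone liver replicate 1, 3 of the 10 differences were called, against 7.07% of 14902 genes (2.94% higher and 4.13% lower). As in liver alone, this library was singled out after its values were seen, so these calls are descriptions. These were Ghr (1.85, SE 0.31, edgeR adjusted p 0.00264), Igfbp3 (2.44, SE 0.65, edgeR adjusted p 0.0360) and Igfbp1 (−5.99, SE 1.43, edgeR adjusted p 0.0226). Leaving out vehicle fat replicate 1 (adjusted p 0.0459) or halofuginone fat replicate 3 (adjusted p 0.0341) also brought the difference for Ghr past the threshold in edgeR's test, and the latter brought that for Igfbp3 past it (adjusted p 0.0357).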

How the data were processed

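Poly(A)-selected RNA-seq of mouse liver (10 libraries) and white adipose tissue (6 libraries) was used as deposited by the authors, in 1 table per tissue. Per the file headers, each library has counts and FPKM. The deposited counts are whole numbers, and in each library 1 to 31 genes with an FPKM above 0 are listed at a count of 0, so they are treated as estimated counts that the authors rounded. Per the submitters' processing notes, fastp 0.18.0, Bowtie2 2.2.8, HISAT2, StringTie 1.3.1, RSEM and the build mm39 were named, without their roles. Because the reference used here is GRCm38, no gene coordinates are given except RefSeq promoter windows of GRCm38.p6. Symbols were matched for 22267 of 22322 identifiers. Reads shared between paralogs, overlapping genes or antisense genes are uncertain. Libraries were grouped by title, and 0 columns were left unmapped.

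Each tissue was fitted alone over all genes with edgeR 4.0.16 (R 4.3.3; low counts removed by filterByExpr, TMM scaling, glmQLFit and glmQLFTest, two-sided). The difference between tissues was fitted over all 16 libraries, taken as independent. SE is the absolute log2 fold change over the square root of F. Log2 values of the deposited FPKM (pseudocount 1 or 0.1) were tested with limma 3.58.1, and DESeq2 1.42.0 was an alternative, beside other scalings and filters and leaving out each library. The scripts were tested on simulated data. No 2 libraries of a group were alike within sampling noise (smallest chi-square per degree of freedom 31.2).

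The members, gene lists and tests were chosen with earlier results of these data known. The text names all 10 members, the called genes of each pathway list whose higher group averaged 1 CPM or more (for lists with more than 6, the 3 largest in each direction), Asns and Trib3, and the 3 liver genes most like Igf1, Igfals and Igfbp1. Some called genes of these lists are counted but not reported by name here. Other genes named were chosen after their values were seen. The list of liver genes higher in males had 1 unmatched symbol of 22.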

Additional observations from a re-analysis of the deposited data

Results flagged for a closer look

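A single library stood far from the rest of its group in 3 of 28 groups of 5 liver libraries checked. Chance would give about 1.4 if the groups were independent. They reuse the same liver libraries, so nothing is concluded from this comparison. Ghr was at 376 CPM in vehicle replicate 5, with 347 CPM in the next library. Igfals was at 108 CPM in halofuginone replicate 1, with 46.2 CPM in the next, and the Igfbp2 share of binding protein FPKM was 49.3% in the same library, with 17.3% in the next.

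The drug effect differed between fat and liver, by the test of the difference itself, for 3 genes of the pathway lists. They were 2 of the 10 amino acid response genes, both lower, and 1 of 18 tested genes usually higher in females, which was higher. Of all 14853 genes tested, 0.949% were called (0.417% higher and 0.532% lower). The cell type marker lists are mostly not described gene by gene. Among them, 3 of 10 macrophage markers were called with a lower difference and 3 of 9 adipocyte markers with a higher one. The difference (fat minus liver, log2 scale) was −4.70 for Asns (SE 0.92, edgeR adjusted p 0.0323), whose level was higher under halofuginone in both tissues. It was −4.58 for Psat1, a serine synthesis enzyme (SE 0.98, edgeR adjusted p 0.0412), which was at 132 ± 42.2 and 140 ± 15.2 CPM in fat (SD, n = 3 each). It was 3.68 for Atp6v0d2 (SE 0.83, edgeR adjusted p 0.0485), which fell in liver and was at 461 ± 321 and 724 ± 598 CPM in fat. Atp6v0d2 is also known from macrophages, whose markers were lower in treated fat, and their part in this difference was not tested.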

How the results depend on the processing

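Of 621 values of the 10 genes under other settings, 548 kept their direction and their side of the threshold, 32 lost the call, 21 gained it and 20 changed sign, and none of those 20 was called. In liver the sign changed with library size alone for Igf1r (0.069) and Stat5b (0.068), and for Stat5b in limma on log2 FPKM (0.056 and 0.063 with pseudocounts of 1 and 0.1). In fat Igf1 turned to 0.143 and 0.145 in limma and to 0.024 with the replicate block. Leaving out 1 library in fat gave −0.345 to 0.461 for Igf1 (above 0 without vehicle or halofuginone replicate 3), −1.43 to 0.52 for Igfbp2 (above 0 without replicate 2 of either group), and −0.24 to 0.362 for Igfbp4 (below 0 without vehicle replicate 3, or at −0.13 without halofuginone replicate 1). It gave −0.035 to 0.483 for Socs2 (below 0 without halofuginone replicate 1) and −0.05 to 0.202 for Stat5b (below 0 without vehicle replicate 3). For the difference between tissues it gave −1.03 to 0.962 for Igfbp2 (below 0 without halofuginone liver replicates 2 or 3, vehicle fat replicate 1 or halofuginone fat replicate 1) and −0.007 to 0.284 for Stat5b (below 0 without vehicle fat replicate 3). The cause was not tested.

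In liver 3 of the 10 genes were called in 1 fit of all 4 groups, a count not set here against the share of all genes called in that fit. Leaving out 1 library gave 1 to 8 genes of the axis, 1275 to 5312 genes over all (lowest without halofuginone replicate 3, highest without replicate 1), and 18 to 38 of the pathway lists. Per list these ranges were 1 to 4 for growth hormone signalling, 0 to 2 for the IGF system, 2 to 8 and 4 to 9 for genes higher in males and females, 2 to 5 for fasting genes and 8 to 10 for the amino acid response. Scaling by library size alone moved the median of all genes by 0.157 in liver and 0.064 in fat (log2).

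In fat DESeq2 called 671 genes (4.71% of those it tested), 1 of the axis (Igfals) and 15 of the pathway lists. A fit of all 4 groups called 334, 1 (Igfals) and 7. No filter on low counts gave 1 gene over all, limma on log2(FPKM + 1) gave 17, and leaving out 1 library gave 0 or 1. For the difference between tissues DESeq2 called 685 genes and 3 of the axis, and limma on log2(FPKM + 1) called 375 and 1. The filter of 1 CPM, the newer quasi-likelihood option and limma with a pseudocount of 0.1 also called 1 of the axis (Ghr). Leaving out 1 library gave 34 to 1053 genes and 0 to 3 of the axis. Apart from those of DESeq2 in fat, these counts of axis and list genes are not set here against the share of all genes called.

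Pairing by replicate number was not shown. Deviations of same-numbered libraries correlated at −0.156 to 0.057 in liver and at 0.111, −0.57 and −0.124 in fat. Differently numbered libraries were not compared, so these values cannot decide on pairing. Between tissues, same-numbered libraries correlated at 0.103, 0.128 and 0.226 in vehicle and −0.101, 0.059 and −0.131 under halofuginone, so sharing of animals was not shown, and the difference between tissues takes all libraries as independent. With the number as a replicate block, 3 axis genes were called in liver, a count not set here against the share of all genes in that fit. The difference between tissues had 20 genes called with this block. Depth limits Igf1r in liver and Igfbp1 and Igfbp2 in fat. With 3 libraries per group, fat gave no call in edgeR's main test.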
